A study of Monodelphis domestica and Mus musculus and Sus scrofa with 73 samples.

Results

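In the bat *Carollia perspicillata*, 8 limb genes were lower in each limb at stages 13 and 14 than at stage 15. The 8 genes, of 27026 in each of the bat tables, were chosen by their forelimb values: a mean at stage 15 about 30 times the mean at stage 14 or more, from a stage 14 level of at most a few CPM (expected counts divided by the sum of the library and multiplied by 1000000). The rise in the forelimb is therefore the reason these genes are described here and not a result, and no test was made of it. The rule uses neither the hind limb and stage 13 libraries nor the gene lengths. The 8 were, however, picked from a larger number of genes near or over the limit with earlier results of these data known, and how they were picked among those is not stated.

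In bats the forelimb becomes the wing: its digits lengthen greatly and stay joined by membrane, while the hind limb stays small. In both limbs a bud of mesenchyme under ectoderm first grows out and is patterned, then flattens into a paddle in which the skeleton begins to condense. The paper describes only forelimb libraries for the bat. It took stage 14 as its early stage (ES) and stage 15 as its late stage (LS), close to the change from bud to paddle.

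RNASeq libraries were made from limbs of embryos, which the paper says were collected in the field in Trinidad. It does not describe the hind limb and stage 13 libraries, so where those embryos were collected is not stated. The labels name no treatment. The 16 bat libraries, of 73 samples of several species, comprised 3 forelimb (FL) and 3 hind limb (HL) libraries at stage 13, 3 of each at stage 14 and 2 of each at stage 15. Of the forelimb libraries, 2 at stage 14 carried the label ES and the 2 at stage 15 the label LS. The labels do not say whether replicates came from separate embryos or litters, so p-values measure only the spread between these libraries, which may be technical. Whole limbs were sequenced, so more cells of a type and more RNA per cell cannot be told apart.

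The names are those of a *de novo* assembly: a component number (comp) and a subcomponent (c). They carry no gene symbol, and the assembled sequences were not used here, so neither the proteins encoded nor their roles can be given, and the labelled tissue could not be checked against marker genes. The sum of expected counts ranged from 13600741 to 61814821 per library, where 3 counts correspond to between 0.0485 and 0.221 CPM. By genes at least 2 times higher than in the next library of the group, 1 library stood apart. Stage 13 FL replicate 3, which had the lowest total, exceeded the others in this way in 12.1% of genes, against 0.366% to 4.1% in the other libraries of stages 13 and 14. Stage 14 HL replicate 1, at 1.39%, did not stand apart over all genes, but these genes included all 8 described here, which was noticed after seeing the data.

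Of the 8 genes, 4 had 4 isoforms in the assembly. Forelimb comp128208_c0 measured 0.375, 1.15 and 1.6 CPM in the 3 libraries at stage 13, 1.51, 1.55 and 1.21 CPM at stage 14, and 85.2 and 117 CPM at stage 15. In the hind limb it measured 2.51, 1.76 and 1.6 CPM at stage 13, 7.88, 1.38 and 0.995 CPM at stage 14, and 30.5 and 35.5 CPM at stage 15. The stage 15 libraries were the highest of each limb, and stage 14 HL replicate 1 lay between them and the rest.

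Forelimb comp128208_c2, the other gene of this component, measured 0.382, 1.78 and 0.882 CPM at stage 13, 2.07, 2.46 and 1.96 CPM at stage 14, and 85.7 and 120.0 CPM at stage 15. Its hind limb levels were 1.41, 0.706 and 0.596 CPM at stage 13, 13.5, 2.78 and 1.23 CPM at stage 14, and 36.1 and 49.3 CPM at stage 15. At stage 14 all 3 forelimb libraries were above the 3 at stage 13, which among the 8 genes also held for comp121423_c0. The share of all genes for which this held was not counted, and the choice used these stage 14 libraries, so nothing is read from it.

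Forelimb comp106366_c0 measured 0.203, 1.02 and 0.221 CPM at stage 13, 1.14, 1.15 and 0.736 CPM at stage 14, and 69.6 and 100 CPM at stage 15. Hind limb levels of this gene were 1.66, 1.0 and 0.126 CPM at stage 13, 7.91, 0.989 and 0.112 CPM at stage 14, and 26.9 and 39.6 CPM at stage 15. Within hind limb stage 14, replicate 1 was 8.01 times the next library, the highest such ratio of the 8 genes.

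Forelimb comp121423_c0 measured 0.271, 1.16 and 0.368 CPM at stage 13, 3.53, 2.74 and 1.9 CPM at stage 14, and 91.0 and 128 CPM at stage 15. Its hind limb levels were 0.307, 0.765 and 0.17 CPM at stage 13, 11.8, 2.1 and 1.23 CPM at stage 14, and 23.5 and 43.1 CPM at stage 15. In both limbs every stage 14 library was above every stage 13 library, and every stage 15 library above those. The share of all genes in such an order was not counted.

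The other 4 genes had a single isoform. Forelimb comp122863_c0 measured 0.339, 0.363 and 0.294 CPM at stage 13, 0.821, 0.502 and 0.184 CPM at stage 14, and 46.2 and 42.2 CPM at stage 15. The hind limb values were 1.1, 0.647 and 0.085 CPM at stage 13, 2.91, 0.631 and 0.223 CPM at stage 14, and 12.8 and 11.4 CPM at stage 15. Stages 13 and 14 overlapped in each limb, and the 2 libraries of stage 15 were close to each other in each limb.

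Forelimb comp74255_c0 measured 3.63, 2.35 and 4.29 CPM at stage 13, 3.49, 2.1 and 4.72 CPM at stage 14, and 82.1 and 98.5 CPM at stage 15. Its hind limb levels were 10.4, 7.93 and 8.26 CPM at stage 13, 12.9, 1.72 and 5.31 CPM at stage 14, and 34.5 and 38.2 CPM at stage 15. It was the gene least silent beforehand. The 3 hind limb libraries of stage 13 lay above the 3 forelimb ones, which also held, by a narrow margin, for comp128208_c0. The share of all genes for which this held was not counted.

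Forelimb comp108014_c0 measured 0.203, 0.109 and 0 CPM at stage 13, 0.321, 0.411 and 0.153 CPM at stage 14, and 33.1 and 26.8 CPM at stage 15. In the hind limb the values were 0, 0.118 and 0.0425 CPM at stage 13, 1.93, 0.291 and 0.168 CPM at stage 14, and 5.84 and 9.24 CPM at stage 15. It was the gene with the lowest levels before stage 15, with 3 expected counts over the 3 hind limb libraries of stage 13 together.

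Forelimb comp117583_c0 measured 0.475, 0.545 and 5.0 CPM at stage 13, 0.892, 0.868 and 0.981 CPM at stage 14, and 29.6 and 35.7 CPM at stage 15. Its hind limb levels were 2.03, 7.18 and 1.23 CPM at stage 13, 2.95, 0.971 and 0.503 CPM at stage 14, and 11.6 and 13.0 CPM at stage 15. It had a single high library in each limb at stage 13, which in the forelimb was replicate 3, the library that stood apart in 12.1% of genes.

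**Figure D1:**
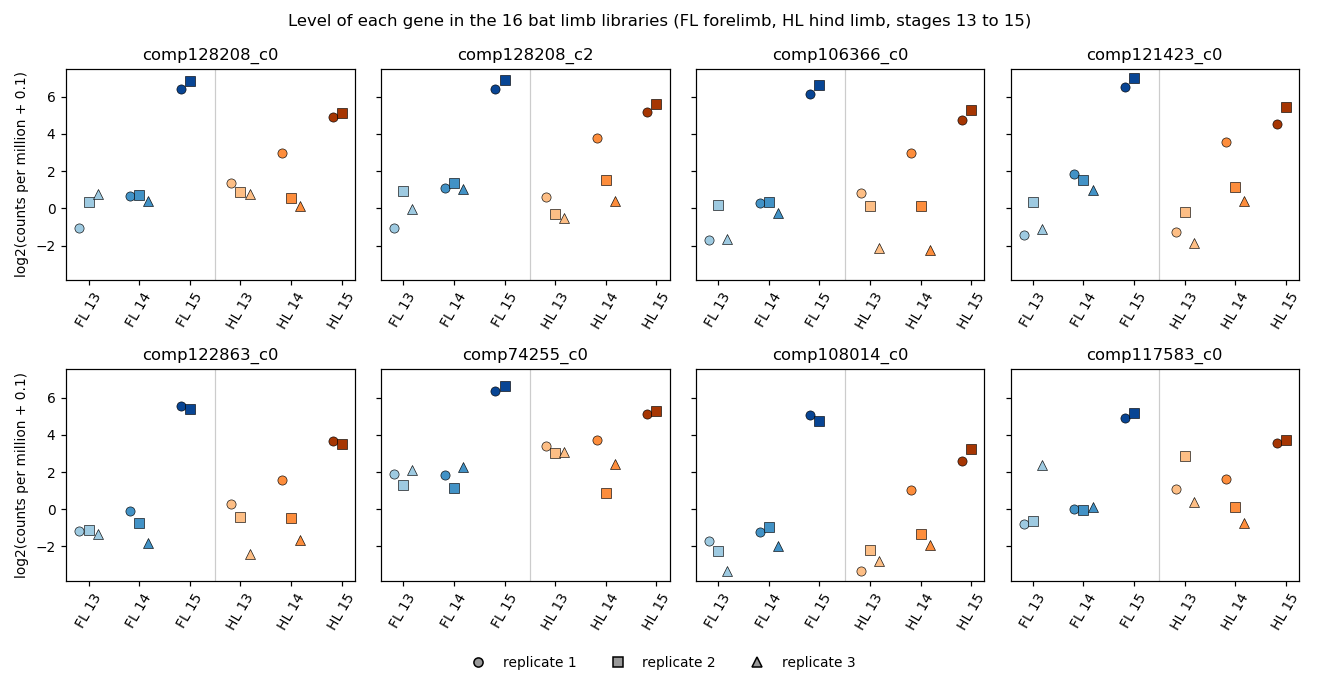
Level of each of the 8 genes, as log2(CPM + 0.1) on the vertical axis, in every library of the 6 groups (FL forelimb, HL hind limb, stages 13, 14 and 15); each point is a library and its shape the replicate number. In every panel the 2 stage 15 libraries are the highest of their limb, those of the forelimb are above those of the hind limb, and stage 14 HL replicate 1 is above the other 2 stage 14 HL libraries.

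In the forelimb, the values that chose the genes gave ratios of the stage 15 mean to the stage 14 mean from 26.3 for comp74255_c0 to 101 for comp108014_c0, with a median of 59.4. With all 3 stage 14 libraries 7 of the 8 genes were at or over 30-fold, against 72 of all 27026 genes (0.266%), a share that the choice itself fixes. Gene comp74255_c0 fell short at 26.3-fold and passed at 32.3-fold when only the 2 libraries labelled ES were used. Just above the limit, among genes of at most 5 CPM at stage 14 and at least 5 CPM at stage 15, were comp119686_c0 at 31.5-fold, comp108517_c0 at 30.1-fold and comp113329_c0 at 30.1-fold. Just below it were comp127703_c2 at 29.4-fold, comp84158_c0 at 28.1-fold and comp111831_c0 at 27.9-fold. Another 27 genes with a stage 15 level of at least 5 CPM were at or over the limit, so the 8 are not a full list of such genes.

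The hind limb gives the same contrast in libraries that the rule does not use. All 8 genes were higher in both stage 15 libraries than in all 6 earlier hind limb libraries, which held for 16% of 13584 genes with a hind limb mean of at least 1 CPM. The ratio of the stage 15 mean to the stage 14 mean ranged from 5.47 for comp74255_c0 to 11.1 for comp106366_c0, with a median of 8.91. All 8 genes reached 5-fold, against 110 of 10697 genes (1.03%) with at least 5 CPM at stage 15. That background holds genes of any stage 14 level, while the 8 were chosen for a low level in the forelimb. Of the other 27 genes at or over 30-fold in the forelimb with at least 5 CPM there at stage 15, 18 reached 5-fold. None of the 8 reached 30-fold, against 6 of all 27026 genes (0.0222%).

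Tested with edgeR's quasi-likelihood test and Benjamini-Hochberg adjustment over all 15305 genes, stage 15 against 14 in the hind limb called 1 of the 8 genes as higher, beside a background of 3.74% of genes called higher. The gene was comp117583_c0, with a log2 fold change of 2.99 ± 0.57 (SE, adjusted p = 0.02, n = 2 and 3 in the edgeR fit). The other 7 were also estimated higher, by 2.42 to 3.40 on the log2 scale, and did not pass: the nearest was comp122863_c0 at 3.20 ± 0.77 (edgeR adjusted p = 0.058), and the farthest comp106366_c0 at 3.40 ± 1.08 (edgeR adjusted p = 0.142). All 8 had an unadjusted p under 0.05 in this test, and the share of all genes under it was not counted. The estimates are thus large and their errors larger than for comp117583_c0.

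Among the fits that left out a library, the one without stage 14 HL replicate 1 moved this count most. This library was the highest of the 3 stage 14 libraries for each of the 8 genes, by 2.43 times the next library for comp74255_c0 to 8.01 times for comp106366_c0, and at least 2 times in 8 of 8, against 194 of 13929 genes (1.39%). None of the 8 was at least 2 times the next library in replicate 2 or replicate 3. The high level in replicate 1 was not particular to the 8. Of 65 other genes at or over 30-fold in the forelimb, it was the highest of the 3 stage 14 libraries in 58. Of these 65, 17 had at least 1 CPM in a stage 14 hind limb library, and 15 of the 17 were at least 2 times the next library in replicate 1. The summed level of the 8 genes was 61.71 CPM in replicate 1, 10.87 CPM in replicate 2 and 9.763 CPM in replicate 3, against 12.11 to 20.1 CPM at stage 13 and 181.7 and 239.5 CPM at stage 15. For 7 of the 8 genes replicate 1 was also above all stage 13 hind limb libraries, which held for 33.8% of the 13929 genes, the exception being comp117583_c0.

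Without that library, all 8 genes were called higher at stage 15, beside 4.13% of the 15123 genes tested, with log2 fold changes from 3.45 for comp74255_c0 to 5.54 for comp106366_c0 and edgeR adjusted p from 0.00034 to 0.0115. The ratio of means then ranged from 10.3 to 60.4, with a median of 24.6. The 2 genes that reached 30-fold were comp106366_c0 at 60.4 and comp108014_c0 at 32.9. Since the library left out was the highest at stage 14 for each gene, every estimate had to rise. In this fit comp106366_c0, comp122863_c0, comp108014_c0 and comp117583_c0 had 10 counts in only 1 stage 14 library. These genes entered the test only through stage 15, where they were high. The number called was 1 without stage 14 replicate 2 (2.28% of all genes called higher), which was then comp74255_c0, and 3 without stage 14 replicate 3 (4.01%). It was 0 without either stage 15 library (1.41% without replicate 1 and 1.25% without replicate 2), where the lone library was assumed to vary like the other group. No log2 fold change of the 8 genes changed sign in any of these fits.

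The total of stage 14 HL replicate 1, 27497418 expected counts, was within the range of the other 2 stage 14 libraries, 17910029 and 61814821. Of the other 186 genes at least 2 times higher in it than in the next library, 36% were at least 2 times higher at stage 15 than at stage 14 in the forelimb, against 6.46% of all 13921 genes compared. Another 11.8% of them were at most 0.5 times as high at stage 15, against 4.44%. The labels give no finer stage for this library, and what part these differences had in the result was not tested.

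**Figure D2:**
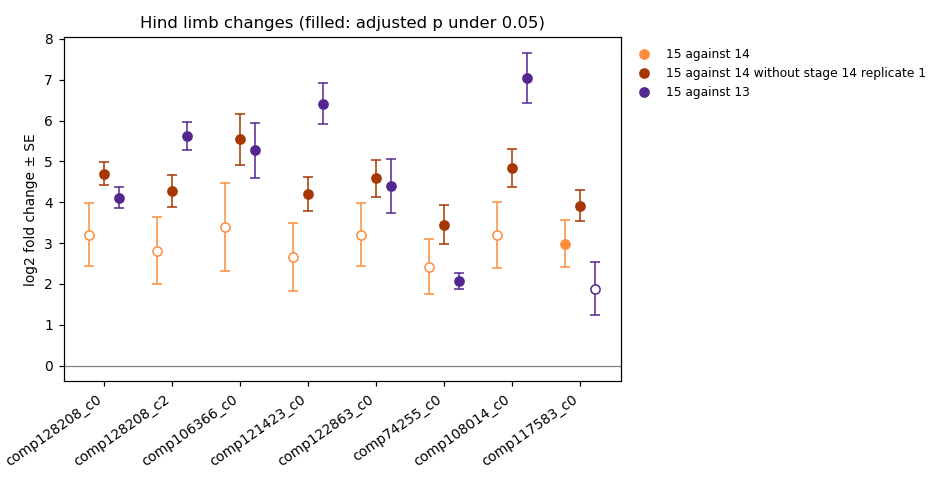
Log2 fold change with its SE (vertical axis) for each of the 8 genes in the hind limb, for stage 15 against 14, the same without stage 14 replicate 1, and stage 15 against 13; filled points have an edgeR adjusted p under 0.05. Leaving out the library raised every estimate and narrowed every error, and 8 of 8 points were then filled against 1 with it. It was the stage 14 library with the highest level of each gene, so the estimates had to rise.

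Stage 13 is a baseline that holds neither the libraries of the rule nor stage 14 HL replicate 1. At stage 15 against 13 in the hind limb, 7 of the 8 genes were called higher, beside 17.8% of all 15468 genes tested. The changes were 4.11 ± 0.26 for comp128208_c0 (SE, edgeR adjusted p = 5.43e-05), 5.62 ± 0.35 for comp128208_c2 and 6.41 ± 0.50 for comp121423_c0 on the log2 scale. Of the 7, comp108014_c0 and comp121423_c0 reached 10 counts in 2 libraries only through stage 15, where they were high, so that among the tested genes they had to differ. The smallest change of those called was comp74255_c0 at 2.07 ± 0.20 (edgeR adjusted p = 0.000448), the gene that was already at 7.93 to 10.4 CPM at stage 13.

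The gene not called was comp117583_c0, at 1.88 ± 0.65 (edgeR adjusted p = 0.0601), the only gene called against stage 14. Its stage 13 value of 7.18 CPM in replicate 2 stood well above 2.03 and 1.23 CPM in the others. Without that replicate all 8 genes were called, beside 14.9% of all genes called higher. In that fit comp106366_c0, comp122863_c0, comp121423_c0 and comp108014_c0 reached 10 counts in 2 libraries only through stage 15, where they were high. For comp108014_c0 the fitted value of 7.04 ± 0.62 depends on the prior count of the fit, since stage 13 held 3 counts in all. The test shares its stage 15 libraries with stage 15 against 14, so the pair of tests is not independent. Leaving out either stage 15 library left comp108014_c0 with too few libraries at 10 counts to be tested, and 6 genes called, beside 8.09% of all genes without replicate 1 and 5.53% without replicate 2.

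Between stages 13 and 14 in the hind limb, edgeR called none of the 7 genes tested, beside 10.6% of all genes. The other, comp108014_c0, did not reach 10 counts in 3 libraries. Unadjusted p was under 0.05 for 2 genes, comp128208_c2 at 2.77 ± 0.94 (edgeR adjusted p = 0.109) and comp121423_c0 at 3.71 ± 1.04 (edgeR adjusted p = 0.0681) on the log2 scale. These 2 genes were called by DESeq2, which called 17.2% of all genes, and by edgeR without stage 14 HL replicate 3, which called 13.4%. The share of all genes with an unadjusted p under 0.05 was not counted. Among the other estimates, comp74255_c0 was at -0.37 ± 0.64 and comp117583_c0 at -1.14 ± 0.81, neither past the threshold. The signs depended on single libraries: without stage 14 HL replicate 1 the estimates of comp128208_c0, comp106366_c0 and comp122863_c0 went from 0.88, 1.81 and 1.15 to -0.65, -0.54 and -0.33, and without replicate 2 that of comp74255_c0 was 0.10.

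At stage 13, where the rule uses neither limb, edgeR called none of the 6 genes tested between forelimb and hind limb, beside 0.0747% of all genes. The genes comp121423_c0 and comp108014_c0 had too few counts for the test. An unadjusted p under 0.05 was found for 1 gene, comp74255_c0, which was lower in the forelimb by a log2 fold change of -1.35 ± 0.31 (edgeR adjusted p = 0.323). DESeq2 called this gene among 0.862% of all genes, and edgeR without stage 13 FL replicate 3 did so among 7.36%, at -1.47 ± 0.32 (edgeR adjusted p = 0.0268). The other 5 estimates ran from -0.92 to 0.21. For this comparison, too, the share of all genes with an unadjusted p under 0.05 was not counted.

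At stage 15 these genes had the higher levels in the forelimb. Both forelimb libraries of this stage carried the label LS and both hind limb libraries a stage number. Limb and kind of label therefore cannot be told apart here. All 8 genes were higher in both forelimb libraries than in both hind limb libraries, by ratios of means from 2.41 for comp128208_c2 to 3.97 for comp108014_c0. This non-overlap held for 19.9% of 13470 genes, and nothing is read from it, because the choice used the forelimb libraries of stage 15. The median ratio was 2.86 over the 8 genes and 1.01 over all these genes. The summed level of the 8 genes was 522.4 and 669.4 CPM in the forelimb libraries of stage 15, from 11.78 to 13.78 CPM at stage 14.

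**Figure D3:**
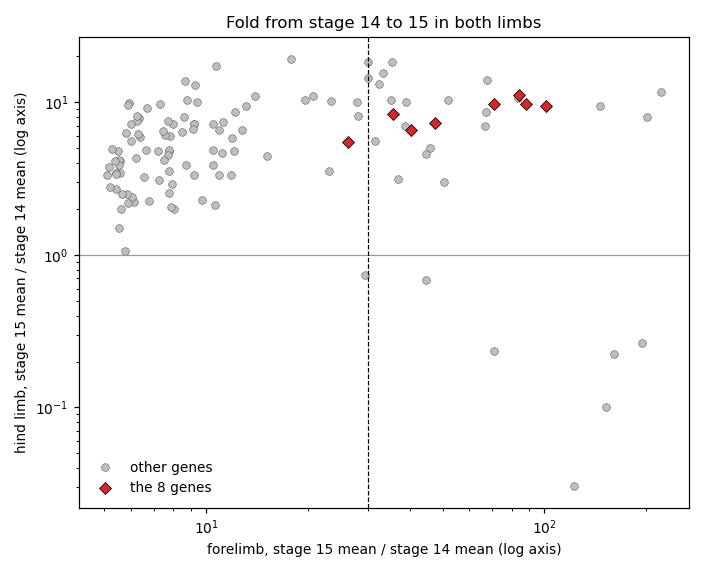
Ratio of the stage 15 mean to the stage 14 mean in the forelimb (horizontal, log axis) and the hind limb (vertical, log axis) for genes of at most 5 CPM at stage 14 and at least 5 CPM at stage 15 in the forelimb that rose at least 5-fold there; the dashed line is 30-fold, used in the choice. The 8 genes (diamonds) lie between 5.47 and 11.1 in the hind limb, while 6 of the other genes right of the line lie under 1.

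The hind limb values of other genes over the limit were more varied. Of the other 27 genes at or over 30-fold in the forelimb with at least 5 CPM at stage 15, 18 were at least 5-fold higher in the hind limb and 6 were lower there at stage 15 than at stage 14. Each of the 8 genes belonged to the former kind. The rule does not name the hind limb, but how the 8 were picked among such genes is not stated, so nothing is read from this.

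Levels per length (FPKM, scaled by effective length) put the 8 genes in another order than CPM. The highest at stage 15 was comp74255_c0, at 543.55 and 650.89 FPKM in the forelimb and 228.54 and 252.39 FPKM in the hind limb. It is also the shortest gene, 511 bases, of which 212 were given as effective, so its FPKM depends most on how the effective length was set. In stage 15 FL replicate 1, its 82.1 CPM divided by those 212 bases gives less than the deposited 543.55 FPKM. The size of its FPKM is therefore uncertain. At stages 13 and 14 this gene already averaged 22.7 and 22.8 FPKM in the forelimb, and 58.9 and 43.9 FPKM in the hind limb. Next at stage 15 were comp128208_c2, at 145.95 and 210.14 FPKM in the forelimb, and comp106366_c0, at 103.73 and 144.8 FPKM.

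The middle of the order was held by comp121423_c0, at 33.1 and 46.57 FPKM in the forelimb, followed by comp128208_c0 at 23.8 and 25.01 FPKM and comp108014_c0 at 25.53 and 20.58 FPKM. This last pair overlapped and has no order in the forelimb. The lowest were comp122863_c0, at 10.97 and 9.99 FPKM, and comp117583_c0, at 7.45 and 8.98 FPKM, although these are among the longest genes, 4400 and 4165 bases. In the hind limb the order by mean was the same except that comp117583_c0 (3.09 FPKM) and comp122863_c0 (2.88 FPKM) changed places, with overlapping libraries, and comp128208_c0 overlapped comp121423_c0.

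**Figure D4:**
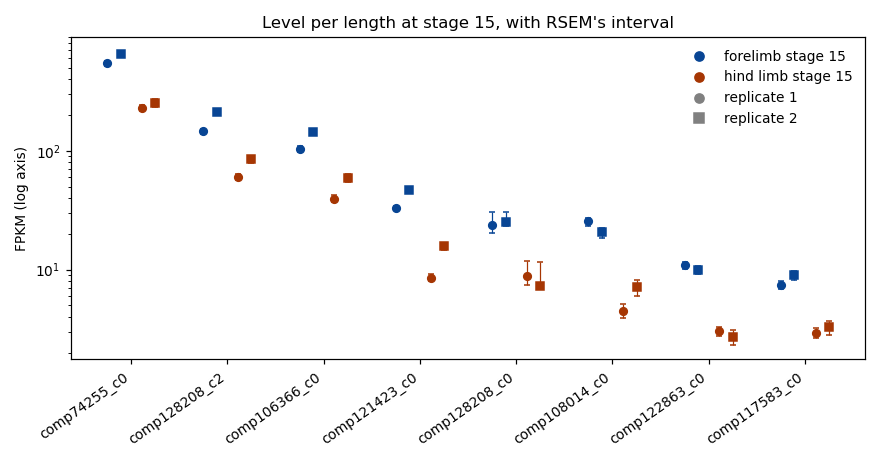
FPKM at stage 15 (log axis) of the 8 genes, ordered by their forelimb mean, with a point for each library and the interval that RSEM gives for it. Levels run from 2.71 FPKM for comp122863_c0 in the hind limb to 650.89 FPKM for comp74255_c0 in the forelimb, and for each gene the intervals of the forelimb libraries lie above those of the hind limb libraries.

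At stage 15 the deposited FPKM lay within RSEM's own interval, which covers the uncertainty of the estimate within a library, in all 32 values. Over all stages 3 of 128 values lay outside, below the interval: comp108014_c0 in its 2 libraries at 0, and comp128208_c0 in stage 13 FL replicate 1. For CPM at stage 15, replicate 2 was 0.809 to 1.44 times replicate 1 in the forelimb and 0.894 to 1.84 times in the hind limb, with the largest gap for comp121423_c0.

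The gene lengths are a readout that the rule does not use. RSEM's length of a gene is the mean over its isoforms, weighted by the share of each in that library, so it moves when the counts move between isoforms of different length. For comp121423_c0 it was 2984 bases in 10 of the 12 libraries before stage 15 and 2995 to 3001 bases at stage 15. For comp128208_c2 it was 910 to 938 bases at stage 15, above 10 of the 12 earlier libraries, and for comp106366_c0 1003 to 1023 bases, above 4 of 12. In both comp121423_c0 and comp128208_c2, stage 14 HL replicate 1 was among the 2 earlier libraries that were not shorter, at 3010 and 924 bases. The 4 genes with a single isoform have a fixed length by construction.

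The length of comp128208_c0 varied most, from 1330 to 5216 bases. At stage 15 it was 3788 and 4852 bases in the forelimb and 3694 and 5043 bases in the hind limb. At stage 14 it was 1330, 2738 and 2244 bases in the forelimb, and 4076, 2446 and 2132 bases in the hind limb, where replicate 1 was again the library nearest to stage 15. At stage 13 the hind limb lengths were 2209, 2205 and 2193 bases, and the forelimb lengths 5216, 2272 and 1857 bases.

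The 4 stage 15 libraries and 2 of the 12 earlier libraries thus had a length above 3000 bases for this gene. The exception in stage 13 FL replicate 1, 5216 bases, rests on 11.06 expected counts, while the stage 15 lengths rest on 599.93 to 1907.79. The stage 14 HL replicate 1 value rests on 216.77. No test was made, since the length depends on so few counts before stage 15. The shift in length means that its FPKM rose less than its CPM: the forelimb mean went from 0.907 to 24.4 FPKM, while its CPM mean went from 1.42 to 101.

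**Figure D5:**
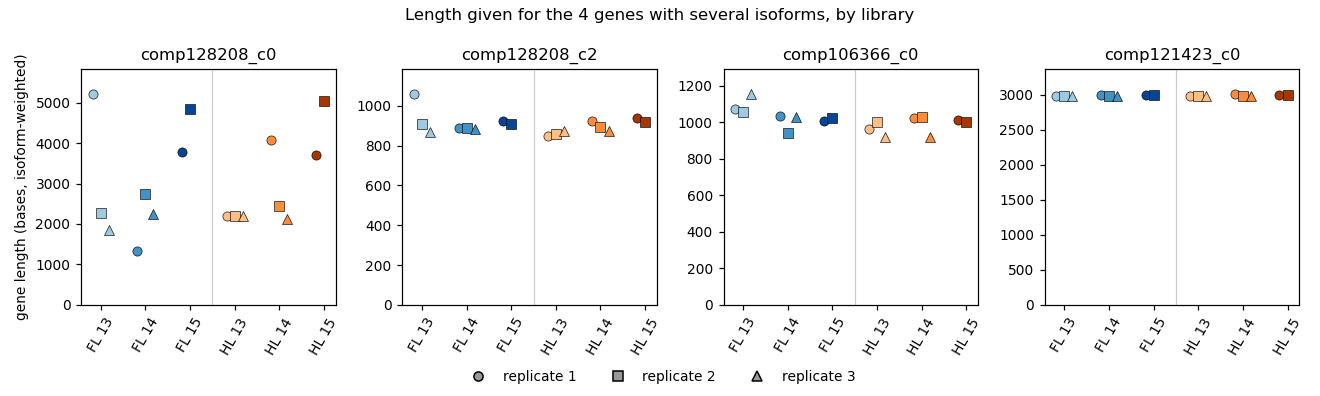
Isoform-weighted gene length in bases (vertical axis, from 0) of the 4 genes with several isoforms, by group, with a point for each library and its shape the replicate number. At stage 15 comp128208_c0 lies at 3694 to 5043 bases, above 10 of its 12 earlier libraries; comp128208_c2 at 910 to 938 bases and comp121423_c0 at 2995 to 3001 bases also lie above 10 of 12, by far fewer bases.

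Having 4 isoforms or more was found in 17.1% of all genes and in 4 of the 8. The shortest of the 8 was longer than 37.5% of all genes, and the median over all genes of the mean length was 902 bases. The pair comp128208_c0 and comp128208_c2 share a component number, and no other gene in the table shares a component with any of the 8. The assembler gives such a number to sequences that it could not fully separate, so the pair may share reads that RSEM had to divide, and their separate values are uncertain. They are not 2 independent cases.

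In the hind limb the ratio of expected counts of comp128208_c2 to comp128208_c0 was 0.563, 0.402 and 0.373 at stage 13, 1.71, 2.02 and 1.23 at stage 14, and 1.18 and 1.39 at stage 15. In the forelimb it was 1.02, 1.55 and 0.552 at stage 13, 1.37, 1.59 and 1.63 at stage 14, and 1.01 and 1.03 at stage 15. By ratio of means, stage 15 over stage 13 was 47.2 for comp128208_c2 and 16.9 for comp128208_c0 in the hind limb, and 102 and 97.4 in the forelimb, where the pair differed little. Whether the counts were divided alike at low and high levels was not tested.

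Over the 16 libraries, on the log2(CPM + 1) scale, each gene followed the mean profile of the other 7 with a Pearson r from 0.90 for comp117583_c0 to 0.996 for comp128208_c0. These correlations describe a profile that the choice of genes shaped, with libraries shared by all points, and have no test. Among 13551 genes with a mean of at least 1 CPM, the 5 other genes most like the mean profile of the 8 were comp114064_c0 (r = 0.990), comp97421_c0 (r = 0.989), comp99263_c0 (r = 0.988), comp136506_c0 (r = 0.985) and comp42292_c0 (r = 0.985). All 5 had a single isoform and lengths of 740 to 2679 bases.

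The nearest, comp114064_c0, measured 10.8 and 13.0 CPM in the forelimb and 3.56 and 4.44 CPM in the hind limb at stage 15, and 0.945, 0.129 and 0.0558 CPM in the stage 14 hind limb libraries. The most abundant of them, comp136506_c0, measured 33.8 and 60.2 CPM in the forelimb and 12.9 and 13.5 CPM in the hind limb at stage 15, and 6.26, 1.39 and 1.01 CPM in the stage 14 hind limb. In all 175 genes other than the 8 had an r of at least 0.9, so a profile like that of the 8 is found in many genes of these tables.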

How the data were processed

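The authors removed adaptors and low-quality ends, built a Trinity assembly from all bat libraries together, filtered it by blastx against SwissProt and quantified each library on it with RSEM (bowtie). Versions are not given in the sources used here. The deposited expected counts are unnormalized, with reads that fit several sequences divided by RSEM's model; the deposited FPKM values are scaled by effective length and library total, by RSEM. TPM columns were not used.

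CPM was each expected count over its library's sum, times 1000000. For tests, expected counts were rounded, and genes with at least 10 counts in as many libraries as the smaller group entered edgeR 4.0.16 (R 4.3.3; TMM, robust quasi-likelihood, Benjamini-Hochberg over all genes, adjusted p under 0.05), with only the 2 groups compared. Groups came from the labels. Fits were tested on simulated counts.

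The 8 genes, the 30-fold limit and the comparisons were chosen with earlier results of these data known. Named genes were the 8, the 5 most alike in profile and the 3 nearest on either side of the limit. Alternatives were DESeq2 1.42.0, RLE factors, other filters, all 16 libraries in one fit, thinning to the lowest total, replicate blocks and each library left out. The stage 14 HL replicate 1 comparison and the fits of the same libraries with no block were chosen after seeing the data. Replicate numbers were not taken as pairs. Counting error only is covered by the 3-count levels. Figures used Python 3.11.15 and matplotlib 3.10.9.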

Additional observations from a re-analysis of the deposited data

How the results depend on the processing

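No log2 fold change of the 8 genes for stage 15 against 14 in the hind limb changed sign: 69 of 104 alternative values kept their side of the threshold, 30 passed it where the reported value had not, and 5 no longer passed. The number of the 8 called there was 1 as reported (3.74% of all genes called higher), with RLE factors (3.73%) and with DESeq2 (5.69%). It was 0 with no filter on low counts (2.54%), 3 at a minimum of 50 counts (3.73%) and 6 with all 16 libraries in one fit (4.25%). Thinning to the lowest total gave 4 (3.64%), and leaving out a stage 14 library gave 1 to 8 (2.28% to 4.13%). All genes called were 761 as reported, 1366 by DESeq2 and 234 to 880 with a library left out. For stage 15 against 13 the number of the 8 stayed between 6 and 8, while all genes called, 5692 as reported, were 1819 to 6555 with a library left out. For stage 14 against 13 the number of the 8 was 0 as reported (10.6% of all genes called), 2 by DESeq2 (17.2%) and 1 with no filter (7.19%). It was 2 with all 16 libraries (14.7%), and 0 to 2 with a library left out (2.58% to 13.4%). All genes called were 1596 as reported, 2587 by DESeq2 and 379 to 1986 with a library left out. Between limbs at stage 13 the number of the 8 was 0 as reported (0.0747% of all genes called) and 1 by DESeq2 (0.862%). With a library left out it was 0 to 1 (0.0344% to 7.36%). All genes called were 11 as reported, 127 by DESeq2, 34 with no filter and 59 with all 16 libraries. With a library left out they were 5 to 1070, the last without FL replicate 3. The cause was not tested. In the forelimb a 50-fold limit left 32 genes, 4 of them among the 8, and a stage 14 level of at most 1 CPM left 3 of the 8. In the hind limb 0 to 2 of the 8 reached 30-fold with a library left out. The 8 genes at least 2 times the next library in stage 14 HL replicate 1 were 8 at 1.5 times and 7 at 3 times.

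With the replicate number as a block, 8 of the 8 genes were called for stage 15 against 14, beside 5.14% of all genes called higher. The same libraries without the block gave 3 of the 8, beside 4.01%. For stage 14 against 13 the block gave 2 of the 8, beside 11.8% of all genes called. The replicate numbers share no stated animal, so they were not taken as pairs. Correlations of same-numbered deviations ran from -0.156 to 0.123 for stage 14 against 13 and from -0.201 to 0.167 between limbs at stage 13. They were -0.206 for stage 15 against 14 and 0.022 for stage 15 against 13. With 2 shared replicate numbers, differently numbered deviations have the opposite correlation by construction, so this last pair of values cannot decide on pairing. Depth limits comp108014_c0 most, with 0 to 2 counts in stage 13 HL libraries.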
